A study of Homo sapiens with 6 samples.

Results

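CCND1, FGF19, ANO1, FADD, PPFIA1, CTTN and SHANK2 are 7 neighbouring genes of the chromosome band 11q13, among 24135 protein-coding and lncRNA genes used here. They were chosen by position and by their place in head and neck cancer, and every ChIP-seq region of 4 peak lists that overlapped a gene body or the 5 kb upstream of it in hg19 was taken. This gave 11 of 19705 H3K27ac regions and 39 of 58582 H3K4me3 regions in HSC3 cells that received a control siRNA (siCONT), and 9 of 17672 and 30 of 56943 in those that received an siRNA against the lncRNA DLEU1 (siDLEU1). HSC3 is an established oral squamous cell carcinoma line. Chromatin was taken at 72 h of siRNA treatment. Each combination of siRNA and mark is a single library (n = 1), so values stand side by side without replicates and without p-values. Both groups share the line, the medium and the transfection, and differ in the siRNA. The lists hold no RNA measurement, so the depletion of DLEU1 could not be checked in them.

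The band 11q13 is a frequent site of DNA amplification in head and neck squamous cell carcinoma, and the amplified stretch often includes several of these genes together. H3K27ac marks active promoters and enhancers, and H3K4me3 marks promoters that are active or poised. CCND1 encodes cyclin D1, which with CDK4 or CDK6 phosphorylates the retinoblastoma protein and drives entry into S phase. FGF19 is a secreted ligand of FGFR4 with the co-receptor KLB. ANO1 is a calcium-activated chloride channel, FADD is the adaptor between death receptors and caspase-8, PPFIA1 is the scaffold liprin-alpha-1, CTTN is cortactin, which stabilises branched actin, and SHANK2 is a scaffold of the postsynaptic density.

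On chromosome 11 the genes run from CCND1 (69455924 to 69469242, plus strand) through FGF19 (69513006 to 69518790, minus strand), ANO1 (69832013 to 70035636, plus strand), FADD (70049402 to 70053496, plus strand), PPFIA1 (70116796 to 70231418, plus strand) and CTTN (70244510 to 70282690, plus strand) to SHANK2 (70313959 to 70963623, minus strand). The canonical transcript of ANO1 starts at 69924423, inside the annotated gene body, whose outermost start lies further upstream. Promoter sequences from RefSeq (GRCh38.p14), each 300 bases with 250 before the start, were matched for ANO1, FADD and PPFIA1, and each had 1 exact match in GRCh37 (hg19). Those of FADD (chr11:70049152-70049451) and PPFIA1 (chr11:70116546-70116845) are shown because regions of all 4 lists overlapped them, and that of ANO1 (chr11:69831763-69832062) because no region did. The ANO1 sequence lies at the outermost annotated start (69832013), not at the start of the canonical transcript. Regions were called at other ANO1 starts, including the canonical one in siCONT, and are described with ANO1. All 3 sequences are on the plus strand, and capitals mark GC boxes (GGGCGG on either strand) and CCAAT boxes (CCAAT on either strand).
FADD promoter: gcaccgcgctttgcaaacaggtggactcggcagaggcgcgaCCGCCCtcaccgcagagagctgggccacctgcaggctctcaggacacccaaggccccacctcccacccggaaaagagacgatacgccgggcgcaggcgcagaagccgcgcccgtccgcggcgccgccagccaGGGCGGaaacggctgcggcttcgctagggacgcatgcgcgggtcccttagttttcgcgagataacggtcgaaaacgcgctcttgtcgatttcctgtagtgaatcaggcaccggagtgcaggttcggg
PPFIA1 promoter: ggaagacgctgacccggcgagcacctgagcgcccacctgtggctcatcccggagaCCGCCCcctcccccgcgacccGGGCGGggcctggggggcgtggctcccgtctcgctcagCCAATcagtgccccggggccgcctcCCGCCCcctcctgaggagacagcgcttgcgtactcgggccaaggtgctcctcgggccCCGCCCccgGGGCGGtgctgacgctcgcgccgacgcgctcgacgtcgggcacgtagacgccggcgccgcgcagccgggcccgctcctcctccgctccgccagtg
ANO1 promoter: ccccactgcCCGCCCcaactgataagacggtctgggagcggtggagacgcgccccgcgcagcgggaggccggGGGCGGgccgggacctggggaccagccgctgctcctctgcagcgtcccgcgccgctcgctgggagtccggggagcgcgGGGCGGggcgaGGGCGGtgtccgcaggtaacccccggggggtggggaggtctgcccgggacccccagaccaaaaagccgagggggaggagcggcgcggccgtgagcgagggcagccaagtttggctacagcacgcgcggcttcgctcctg
The FADD promoter held 2 GC boxes, the PPFIA1 promoter 5 and a CCAAT box, and the ANO1 promoter 4. A GC box was found in 45.0% of 35116 RefSeq promoters of the same length and a CCAAT box in 34.6%. GC content was 66.7%, 77.7% and 76%, against a median of 58.7% over all promoters. None of the 3 held TATAAA on either strand, which was found in 11.5% of promoters.

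A further sequence is the 201 bases around the siDLEU1 summit of the H3K4me3 region whose coverage differed most between the siRNAs at these genes (chr11:69839676-69839876, plus strand, GRCh37). This region lay inside the ANO1 gene body, upstream of its canonical transcript, and is described with ANO1.
ANO1 upstream region: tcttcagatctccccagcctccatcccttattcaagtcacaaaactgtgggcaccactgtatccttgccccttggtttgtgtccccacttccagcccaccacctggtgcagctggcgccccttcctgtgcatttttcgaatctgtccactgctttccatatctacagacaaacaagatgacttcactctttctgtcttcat
It held no GC box, no CCAAT box and no AP-1 site (TGANTCA), which were found in 16.5%, 18.3% and 4.42% of the same windows of all 56943 siDLEU1 H3K4me3 regions. Its GC content was 50.2%, against a median of 53.2% in those windows. It is printed without capitals.

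The peak lists give a fold enrichment, which is the number of fragments at a summit over the local background of a control library. Both terms were recovered for each region from the fold enrichment and the p. Coverage is given below as a multiple of the mean coverage of the same library, and the local background as a multiple of the genome-wide mean of the control library, which is also the lowest value that MACS2 allows. ChIP libraries came to 21.5 M (siCONT) and 29.4 M reads (siDLEU1) for H3K27ac and 28.4 M and 22.3 M for H3K4me3. Control libraries came to 7.18 M and 6.73 M reads. Of 10 squamous markers, 10 had a region at a TSS in each list except siDLEU1 H3K27ac, where DSG3 had none, and none of 7 markers of blood, endothelium, fibroblasts or melanocytes had one in any list. Intervals are exact 95% intervals and cover counting error only.

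In both control libraries, the local background was higher at these genes than over all regions of the lists. It cannot lie below the genome-wide mean, so all regions are the comparison here. The median local background at the members was 3.31 times the genome-wide mean in siCONT (50 regions of both marks, range 1.09 to 6.04) and 2.81 times in siDLEU1 (39 regions, 1.32 to 10.8). Over all regions of the lists it was 1.24 in each siRNA. The highest member values were set by 3 control fragments over a summit in siCONT and by 5 in siDLEU1. A background above 1.5 times the median of all regions was found at 46 of 50 member regions in siCONT (92%) and at 38 of 39 in siDLEU1 (97.4%), against 39.1% and 38% of all regions. None of the member regions was at the genome-wide floor, where 35.0% and 32.9% of all regions stood.

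The count of control reads in 10 kb around a summit can be read where that window set the background, and elsewhere it was no higher than the value used. A readable count is therefore never below the genome mean. The genome-wide mean was 26.6 reads per 10 kb in siCONT and 24.9 in siDLEU1. Upstream of CCND1, 62 control reads were counted in siCONT around a summit at −2.30 kb from the TSS. In siDLEU1, 69 were counted around a summit at −0.361 kb. ANO1 had 63 to 86 reads in siCONT and 53 to 87 in siDLEU1. FADD had 67 and 68 reads in its siCONT regions and 69 in siDLEU1. PPFIA1 had 54 and 66 reads, and CTTN had 64 and 65 in siCONT. FGF19 had 58 and 59 in siDLEU1. All of these counts were above 2 times the genome mean of their library, as plotted by distance from CCND1.

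**Figure D1:**
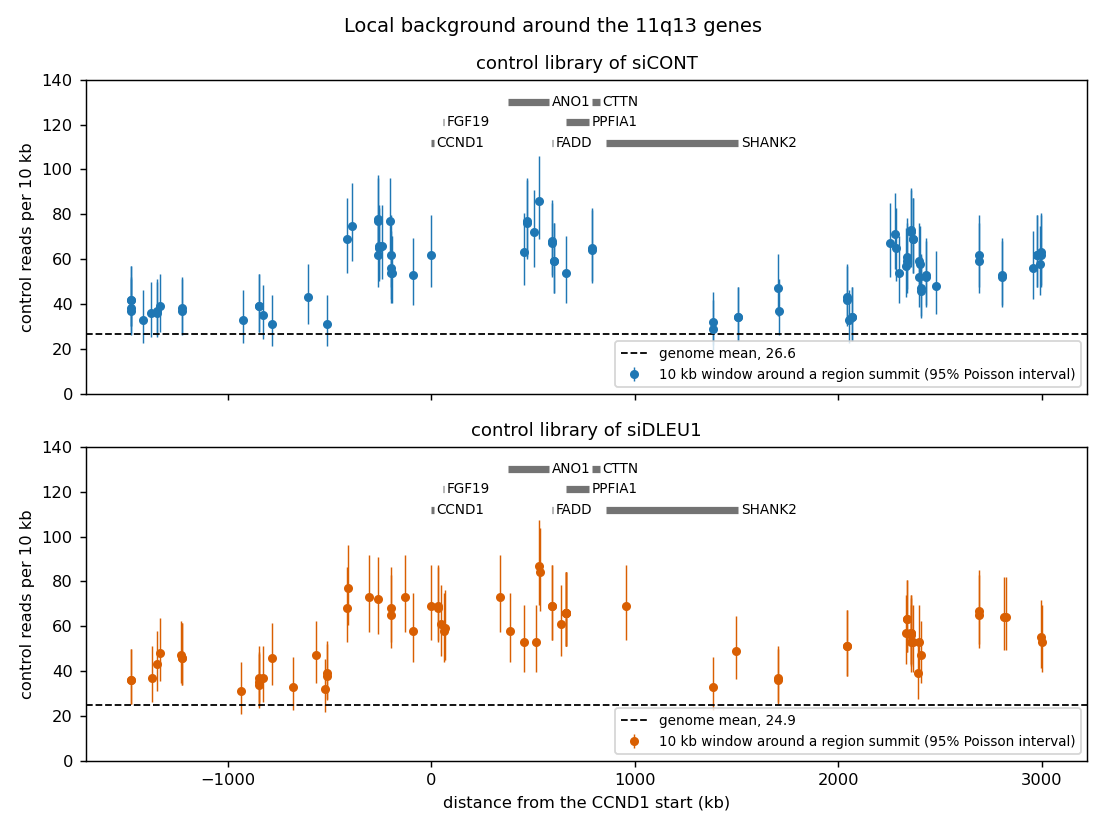
Control reads per 10 kb around the summits of regions of both marks, by distance from the CCND1 start in kb, for the control library of siCONT (top) and siDLEU1 (bottom), with exact 95% Poisson intervals. Grey bars are the 7 genes and the dashed line is the genome mean (26.6 and 24.9). Counts of 53 to 87 run from upstream of CCND1 to CTTN in siCONT and into SHANK2 in siDLEU1, and those at the 5′ side of SHANK2 are 29 to 49.

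SHANK2 was split. The minus-strand gene is long, and its 3′ part lies next to CTTN. In that part, 958.6 kb from the CCND1 start, the background was 4.51 times the genome mean in siCONT, set by 12 control reads in 1 kb, and 2.77 times in siDLEU1, set by 69 reads in 10 kb (53.7 to 87.3). Nearer its promoter, windows of 10 kb held 29 to 34 reads in siCONT (4 of 10 regions) and 33 and 49 in siDLEU1. Over all regions on this side the background was 1.09 to 3.76 times the genome mean in siCONT and 1.32 to 2.28 times in siDLEU1. From CCND1 to the 3′ part it was 2.03 to 6.04 times in siCONT and 2.13 to 10.8 times in siDLEU1, so the ranges overlap. At the SHANK2 promoter 34 reads were counted in siCONT (23.5 to 47.5), whereas CTTN had 64 (49.3 to 81.7), and these intervals do not overlap. In siDLEU1, the 33 reads 1385 kb from the CCND1 start (22.7 to 46.3) also lay below the interval of the 3′ part, but the 49 reads near 1496 kb (36.3 to 64.8) did not. The point of the split within SHANK2 was chosen after the values were seen.

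A step of the same kind lay upstream of CCND1. From −1475.8 to −513.6 kb relative to the CCND1 start, the windows held 31 to 43 reads in siCONT (18 windows) and 31 to 48 in siDLEU1 (19 windows). From −414.0 kb to CTTN they held 53 to 86 in siCONT (27 windows), and from −413.5 kb to the 3′ part of SHANK2 they held 53 to 87 in siDLEU1 (28 windows). The windows on either side of this step had 31 (21.1 to 44.0) and 69 reads (53.7 to 87.3) in siCONT, and 39 (27.7 to 53.3) and 68 (52.8 to 86.2) in siDLEU1. The intervals overlap by less than 1 read in siDLEU1 and not at all in siCONT. Beyond SHANK2 the counts were 33 to 47 and 36 to 51, and a second stretch of 46 to 73 and 39 to 67 reads began past 2255 kb in siCONT and past 2334 kb in siDLEU1. Neighbouring windows share reads, and these stretches were also set after the values were seen.

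Among all 1 Mb bins of the genome with at least 20 regions, the bin from 69 to 70 Mb of chromosome 11, which holds CCND1, FGF19 and most of ANO1, had the highest median local background in both control libraries, at 3.01 times the genome mean in siCONT (55 regions, rank 1 of 1404 bins) and 3.61 in siDLEU1 (60 regions, rank 1 of 1395). The bin from 70 to 71 Mb, with FADD, PPFIA1, CTTN and SHANK2, ranked 3 (2.54, 30 regions) and 2 (2.77, 20 regions, the minimum). The bin before, from 68 to 69 Mb, ranked 188 (1.88) and 241 (1.97). The bins after, which hold no member, also ranked high. That from 71 to 72 Mb ranked 5 (2.26) and 3 (2.47), and that from 72 to 73 Mb ranked 16 (1.92) and 9 (2.25). The ranking was added after the values were seen. DNA copy number was not measured in these libraries and its part in these values was not tested.

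At CCND1, PPFIA1 and CTTN, the place of H3K27ac by fold enrichment differed from that by fragments. By fragments at the summit, the strongest H3K27ac regions of FADD, PPFIA1, CTTN and CCND1 all stood above the 98th percentile of their list in both siRNAs. By fold enrichment, FADD alone did so in both siRNAs. CCND1 was at percentile 98.6 by fragments and 72.4 by fold in siCONT, and at 99.8 and 97.5 in siDLEU1. PPFIA1 was at 99.96 by fragments and 79.3 by fold in siCONT, and at 99.9 and 98.6 in siDLEU1. CTTN went the other way, with 99.3 and 93.6 in siCONT and 99.2 and 71.4 in siDLEU1. The difference between the siRNAs in fold percentile was therefore 25.1 points at CCND1, 19.2 at PPFIA1 and −22.2 at CTTN, and by fragments it was 1.26, −0.0867 and −0.0936. SHANK2 and ANO1 did not follow this pattern. SHANK2 differed by −25.8 points by fold, the widest of the 6 genes with an H3K27ac region, and by −9.21 by fragments, and ANO1, with no region in siDLEU1, by −17.6 and −29.6. FADD differed by −0.327 and −0.0324. Above the 98th percentile, a difference in coverage moves the rank little. In overlapping regions paired as below, siDLEU1 coverage was 0.582 of siCONT coverage at SHANK2. It was 0.589 to 0.788 of siCONT coverage at CCND1, FADD, PPFIA1 and CTTN, so the small fragment differences do not set these genes apart from SHANK2.

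At CCND1, PPFIA1, CTTN and SHANK2 the background rested on few control reads in one of the siRNAs. At the strongest CCND1 region the background in siCONT was set by 2 control fragments over the summit (4.02 times the mean), and in siDLEU1 by 7 reads in 1 kb (2.81 times). The strongest PPFIA1 region by fold was that in intron 1 in siCONT, with 2 fragments over the summit (4.02 times), and the upstream one in siDLEU1, with 66 reads in 10 kb (2.65 times). At CTTN it was 65 reads in 10 kb in siCONT (2.45 times) against 2 fragments over the summit in siDLEU1 (4.56 times). At SHANK2 it was 34 reads in 10 kb in siCONT (1.28 times) against 1 fragment over the summit in siDLEU1 (2.28 times). An exact interval of 2 counts runs from 0.242 to 7.22, and that of 1 count from 0.0253 to 5.57. For each of these genes the fold percentile rests on such a count in one of the siRNAs.

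**Figure D2:**
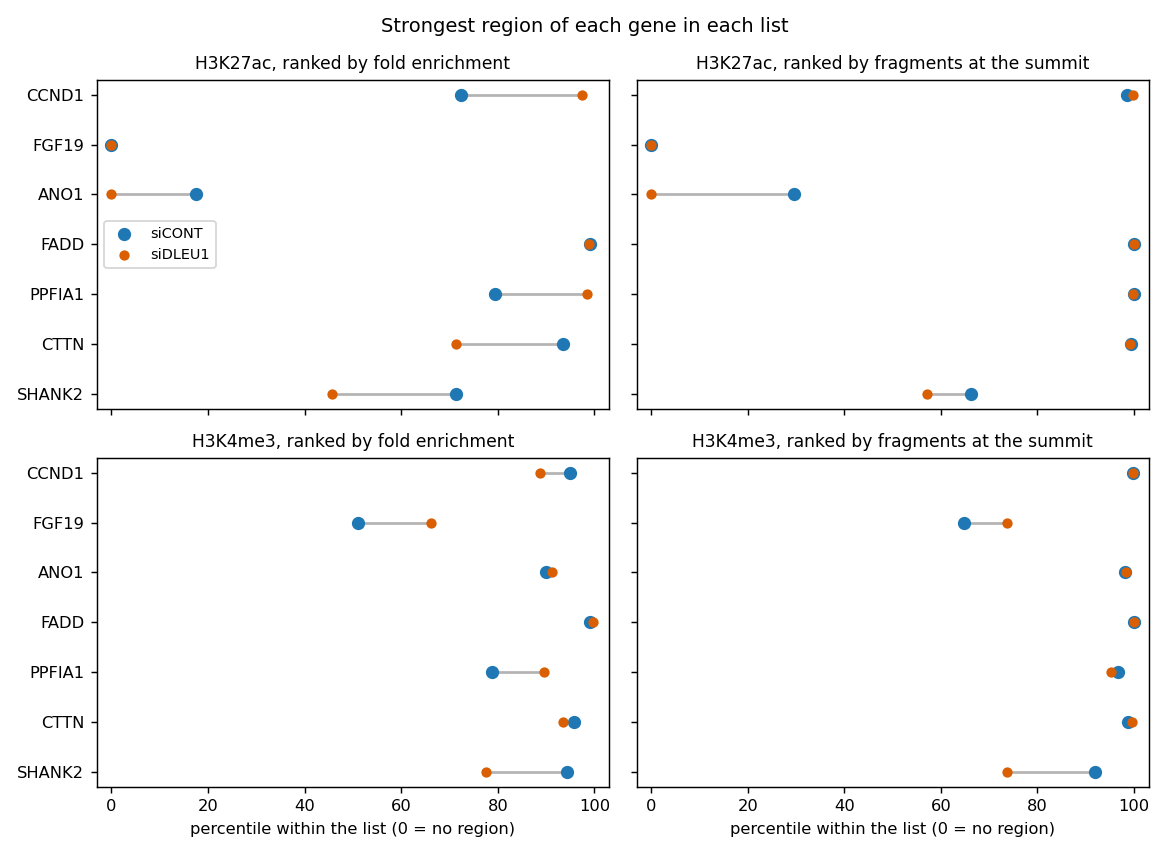
Percentile of the strongest region of each gene within each list (x axis, 0 where a gene has no region), ranked by fold enrichment (left) and by fragments at the summit (right), for H3K27ac (top) and H3K4me3 (bottom). Blue points are siCONT and orange points siDLEU1. In H3K27ac the points of CCND1, PPFIA1 and CTTN sit apart by fold (25.1, 19.2 and −22.2 points) and nearly on top of each other by fragments, whereas those of SHANK2 and ANO1 sit apart by both (−25.8 and −17.6 by fold, −9.21 and −29.6 by fragments). The H3K27ac fragment percentiles of CCND1, PPFIA1 and CTTN are 98.6 or above, where a difference in coverage moves the rank little.

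H3K27ac was compared in 7 pairs of overlapping regions. Of the 11 siCONT regions, 7 were overlapped by a siDLEU1 region (63.6%, 30.8 to 89.1) and 4 were not (36.4%), against 22.2% of all siCONT regions with no overlap, a share inside the interval of 10.9 to 69.2%. All 9 siDLEU1 regions were overlapped in siCONT, where 1.24% of all siDLEU1 regions were not. The covered length went from 12937 to 9959 bp, a ratio of 0.770, against 0.714 over all regions. The summed coverage of the 7 pairs in siDLEU1 was 0.641 of that in siCONT (0.591 to 0.696). The median ratio was 0.613, against 0.621 over 15334 pairs of the whole list. A coverage at least 1.5-fold lower was found in 6 of 7 pairs (85.7%) and at least 1.5-fold higher in 0, against 66.5% and 0.443% of all pairs. Each siCONT region was paired with the overlapping siDLEU1 region of highest fold enrichment. Paired by the nearest summit instead, an alternative added after the values were seen, 5 of 7 pairs were at least 1.5-fold lower (71.4%) and 0 higher, against 66.5% and 0.417% of all pairs, and the summed ratio was 0.671 (0.619 to 0.727). The pair that changed was the upstream one of CCND1. The share of lower pairs was near that of the whole list.

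H3K4me3 was compared in 28 pairs. Of the 39 siCONT regions, 28 were overlapped (71.8%, 55.1 to 85.0) and 11 were not (28.2%), against 23.6% over all. Of the 30 siDLEU1 regions 3 had no siCONT region (10%), against 21.2%. The covered length was 31987 bp in siCONT and 30970 bp in siDLEU1, a ratio of 0.968, against 0.917 over all regions. Summed coverage was 1.48 times higher in siDLEU1 (1.41 to 1.55), and the median ratio was 1.31, against 1.22 over 44741 pairs. Coverage was at least 1.5-fold higher in 10 of 28 pairs (35.7%, 18.6 to 55.9) and at least 1.5-fold lower in 1 (3.57%), against 27.8% and 4.85% of all pairs. The 28 pairs are not 28 separate siDLEU1 regions, because 1 wide region can be paired with several siCONT regions. The siDLEU1 regions of 244 and of 74 fragments at CCND1 and of 287 at FADD thus entered the sum more than once. The higher pairs include such repeats. The intervals of the summed ratios and of the shares treat the pairs as separate and do not allow for this. With only those pairs whose summits lay within 500 bp, the summed ratio was 1.31, below the interval of 1.41 to 1.55. Paired by the nearest summit, it was 1.47 (1.40 to 1.55), with 10 pairs higher and 1 lower, against 27.3% and 5.07% of all pairs.

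**Figure D3:**
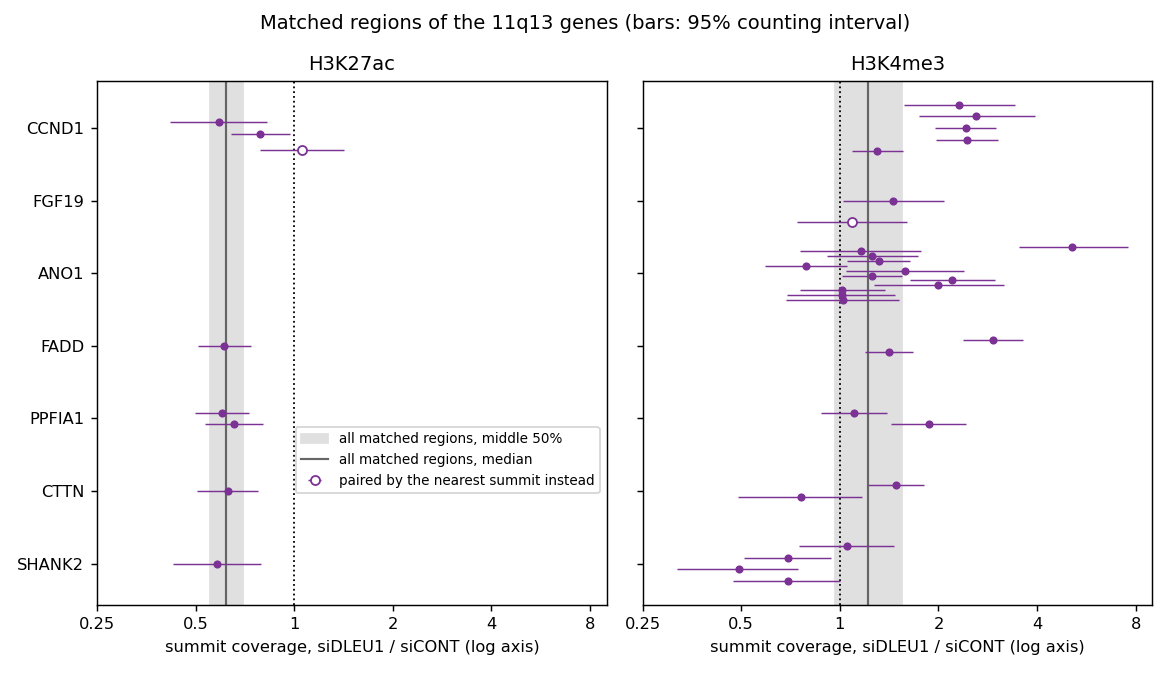
Ratio of summit coverage in siDLEU1 to that in siCONT on a log axis, for each matched region of the 7 genes (points, with 95% counting intervals), in H3K27ac (left) and H3K4me3 (right). The grey band and line are the middle 50% and the median of all matched regions. Open circles, with the same intervals, show the 2 regions whose partner changed when paired by the nearest summit (CCND1 in H3K27ac, 1.06, and FGF19 in H3K4me3, 1.09). The filled H3K27ac points lie at 0.582 to 0.788, and the H3K4me3 points run from 0.493 in SHANK2 to 5.11 in ANO1.

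CCND1 had a wide domain of both marks over its promoter and intron 1. In siCONT, 1 H3K27ac region ran from 69454835 to 69458243 (3409 bp) across the TSS, with 189 fragments at a summit 1.07 kb inside intron 1 and a coverage of 127 times the mean. In siDLEU1 this stretch was called as 2 regions, from 69454919 to 69455756 with 129 fragments and from 69455875 to 69458136 with 192. The coverage of the stronger was 100 times the mean, a ratio of 0.788 (0.642 to 0.969), higher than in 88.3% of all H3K27ac pairs. Upstream, the region at 69452868 to 69454314 had 83 fragments in siCONT and was paired with one of 63 in siDLEU1, a ratio of 0.589 (0.418 to 0.827), with summits 771 bp apart. A second siDLEU1 region that overlapped it (69453912 to 69454356) had 113 fragments and a summit 71 bp from that of siCONT, and against it the ratio was 1.06 (0.789 to 1.42). The lower coverage upstream of CCND1 thus depends on which of the 2 regions is compared. The background at this second region was 9.12 times the mean in siDLEU1, set by 4 control fragments, and its fold percentile was 11.9. A small region upstream of these (69451126 to 69451426), with 35 fragments, was called in siCONT only.

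H3K4me3 at CCND1 was in 5 regions in siCONT and in 2 in siDLEU1, 1 of them 5559 bp long (69452706 to 69458264). The summits over intron 1 lay 6 bp apart. There the fragments were 257 in siCONT and 244 in siDLEU1, and the coverage was 122 and 159 times the mean, a ratio of 1.30 (1.09 to 1.56), close to the median of all pairs. The other 4 pairs had ratios of 2.30 to 2.60, but 2 of them compare separate siCONT summits, 1446 and 3390 bp away, with the summit of the joined region. The remaining 2 compare 2 siCONT regions with the same siDLEU1 region, of 74 fragments. The covered length was 5351 bp in siCONT and 6635 bp in siDLEU1. In H3K27ac it was 5157 and 4316 bp.

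Over the 4 fold percentiles of the strongest region, 72.4, 97.5, 94.99 and 88.7 for CCND1, the most similar of 19141 protein-coding genes were TPX2 at a distance of 4.76 and CCN1 and DDAH1 at 4.80 each. CCN1 and DDAH1 had the same 4 values. The likeness rests on 4 values per gene. For CCND1 those of H3K27ac depend on a few control reads as described above. Those of H3K4me3 do so too, with backgrounds set by 2 control fragments in siCONT and 3 in siDLEU1. By fragments, where CCND1 stood at 98.6, 99.8, 99.8 and 99.9, the most similar genes were HIPK3 (0.421), BLCAP (0.515) and INPPL1 (0.602), and TPX2 was at a distance of 14.2 and CCN1 and DDAH1 at 26.9. The genes most like CCND1 thus differed with the ranking.

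FGF19 had no H3K27ac region in either siRNA. Its H3K4me3 lay upstream of the gene and was weak. In siCONT 1 region with 64 fragments stood upstream of the TSS (69521746 to 69522180), at 30.4 times the mean. In siDLEU1 there were 3 regions with 34, 51 and 68 fragments, of which the weakest (22.1 times the mean) lay within 1 kb of the TSS. The siCONT region overlapped 2 of them. The stronger by fold, with which it shared few bases and whose summit was 513 bp away, gave a ratio of 1.46 (1.02 to 2.08). The other (69521199 to 69522049), with 51 fragments and a summit 96 bp away, gave 1.09 (0.741 to 1.60), an interval that includes no difference. The fold percentile of the strongest region was 51.0 in siCONT and 66.2 in siDLEU1, the lowest of the 7 genes in both H3K4me3 lists.

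ANO1 carried the most regions and nearly all were H3K4me3, with 17 in siCONT and 16 in siDLEU1 over 12956 and 12777 bp. Its single H3K27ac region, 214 bp at the canonical TSS with 46 fragments (69924258 to 69924471), was called in siCONT only, and so was the H3K4me3 region there, of 236 bp and 52 fragments. No region of either mark was called at the canonical TSS in siDLEU1. An uncalled region is not a measured 0, since the lists hold only regions that passed the q threshold.

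The H3K4me3 region printed above was the one that differed most. Its siDLEU1 summit lay upstream of the canonical TSS (−84.6 kb), within the annotated gene body. In siCONT it was 241 bp long with 37 fragments, 17.6 times the mean and at percentile 7.81 by fold. In siDLEU1 it was 1857 bp long (69838512 to 69840368) with 138 fragments, 89.8 times the mean and at percentile 91.2. The ratio was 5.11 (3.53 to 7.56), and 364 of 44741 pairs in the list had one as high. The local background at this region was 3.01 times the mean in siCONT and 2.33 in siDLEU1. A long noncoding transcript is annotated over the same stretch on the same strand. No annotated start of the genes used here lay within 1 kb of the region, and a part of that transcript in the difference was not tested.

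The other 11 pairs of ANO1 had ratios of 0.790 to 2.20. The strongest by coverage lay in intron 11, with 189 fragments in siCONT and 173 in siDLEU1, a ratio of 1.25 (1.01 to 1.55). Its neighbour in the same intron had 76 and 122 fragments, a ratio of 2.20 (1.64 to 2.97). The cluster at −14.2 kb from the canonical TSS, at other annotated starts, had 171 and 164 fragments, a ratio of 1.31 (1.05 to 1.64). At that summit the background was 10.8 times the mean in siDLEU1, set by 5 control fragments, and the fold percentile went from 83.8 to 56.6 although coverage was higher. The weakest ratio, 0.790 (0.591 to 1.05), was at −10.3 kb, where 137 fragments in siCONT stood against 79.

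**Figure D4:**
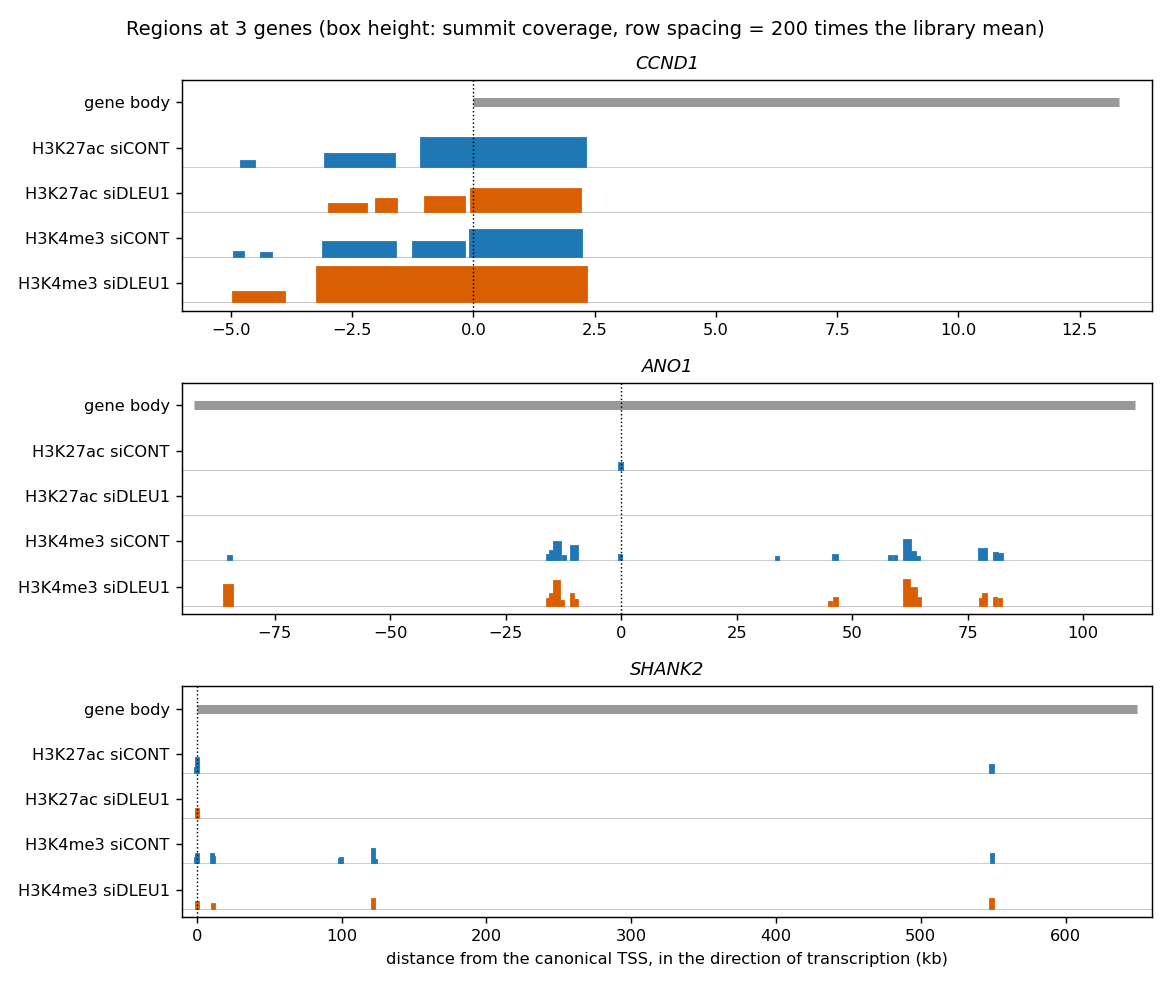
Regions of the 4 lists at CCND1, ANO1 and SHANK2 by distance from the canonical TSS in kb, in the direction of transcription. Box height is the summit coverage, with a row spacing of 200 times the library mean, and narrow boxes are widened to be seen. At CCND1 the marks join over the promoter and intron 1, at ANO1 the box furthest upstream is taller in siDLEU1 (89.8 against 17.6), and SHANK2 has fewer boxes in siDLEU1.

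FADD had the highest H3K27ac coverage of the 7 genes in both siRNAs, followed by PPFIA1, whose counting intervals overlap those of FADD. The region covered the TSS and exon 1, with 261 fragments in siCONT (175 times the mean) and 206 in siDLEU1 (107 times), and summits 9 bp apart. The ratio was 0.613 (0.508 to 0.738), close to the median of the list. In H3K4me3, 279 fragments stood in siCONT and 287 in siDLEU1, at 132 and 187 times the mean, a ratio of 1.41 (1.19 to 1.67). A second siCONT region just upstream, with 134 fragments, was joined to the main one in siDLEU1. By fold, FADD stood at percentiles 99.2 and 98.8 in H3K27ac and at 99.03 and 99.6 in H3K4me3, the highest of the members in all 4 lists.

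PPFIA1 had 2 regions of each mark at its start, 1 on each side of the TSS with a gap over it, except for H3K4me3 in siCONT, where a further region with 40 fragments stood in intron 27. In H3K27ac the upstream region had 255 and 198 fragments, a ratio of 0.603 (0.498 to 0.728), and the one in intron 1 had 211 and 178, a ratio of 0.655 (0.533 to 0.803). In H3K4me3 the upstream region had 170 and 137 fragments, a ratio of 1.10 (0.875 to 1.39), and the one in intron 1 had 102 and 139, a ratio of 1.87 (1.44 to 2.44). The promoter printed above begins in the upstream region and ends in the gap before the region in intron 1.

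CTTN had 1 H3K27ac region over its TSS, with 202 fragments in siCONT and 163 in siDLEU1. Coverage was 136 and 85.0 times the mean, a ratio of 0.626 (0.506 to 0.774), with nearly the same length (2206 and 2228 bp). H3K4me3 at the TSS had 204 and 221 fragments, at 96.8 and 144 times the mean, a ratio of 1.48 (1.22 to 1.80). A weaker region 4.15 kb inside intron 1 had 63 and 35 fragments, a ratio of 0.761 (0.489 to 1.17). Its interval includes no difference.

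SHANK2 had a median H3K4me3 ratio of 0.694 over 4 pairs, where the medians of the other members were 1.12 to 2.42. The highest of these, at CCND1, rests on pairs that share siDLEU1 regions. There were 9 regions over 5551 bp in siCONT and 4 over 2632 bp in siDLEU1, of which all 4 were overlapped in siCONT. At the promoter the H3K4me3 fragments were 89 and 45, a ratio of 0.693 (0.473 to 1.002). In intron 3 they were 134 and 68, a ratio of 0.695 (0.512 to 0.938). Near 11 kb inside intron 1 they were 89 and 32, a ratio of 0.493 (0.318 to 0.745), with summits 384 bp apart. A ratio at least as high was found in 44317 of 44741 pairs of the list. In the 3′ part, where the background was raised, the ratio was 1.05 (0.751 to 1.47). The intervals of the 3 pairs on the 5′ side all ended below 1.22, the median of all pairs.

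In H3K27ac, the SHANK2 promoter region had 100 and 75 fragments, a ratio of 0.582 (0.426 to 0.793). A second region just upstream of the TSS (70963769 to 70964305), with 34 fragments, and the one in the 3′ part, with 50, were called in siCONT only. By fragments, the strongest SHANK2 region stood at percentiles 66.3 and 57.1, below CCND1, FADD, PPFIA1 and CTTN in both siRNAs.

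The genes around the members and their partners were taken from lists, compared by the change in fold percentile from siCONT to siDLEU1. Over all 14368 genes with an H3K27ac region in siCONT the median change was −4.77 points, with 63.3% of genes lower. Over 6 members it was −8.94, with 4 lower and 2 higher. Over the 5 with a region in both siRNAs, without ANO1, it was −0.327. Over all 13422 genes with a region in both siRNAs it was −3.78, with 60.7% lower. Ranked by fragments it was −0.0902 over the 6 members, with 5 lower and 1 higher, against −4.57 and 70.99% of genes lower over all. Among 14 neighbours of 11q13, 9 had an H3K27ac region in each siRNA, with 4 lower and 5 higher and a median of 2.14. IGHMBP2 and MRPL21 had the same percentiles, as did DHCR7 and NADSYN1, so these 9 are not 9 separate values. Of these neighbours, MYEOV, upstream of CCND1, had a local background of 3.76 times the mean in siCONT and 4.32 in siDLEU1. LTO1, between CCND1 and FGF19, had 3.01 and 2.75. CPT1A (1.88 and 2.01), DHCR7 (1.88 and 2.16) and NADSYN1 (1.88 and 2.22), further out, were above 1.5 times the median of all regions by less. In H3K4me3, 1 control fragment over a summit already gives 1.88 in siCONT and 2.16 in siDLEU1. Such values pass this cut-off and can rest on 1 read.

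Of 9 partners and relatives of cyclin D1 in the cell cycle, 8 had an H3K27ac region in siCONT and 7 in siDLEU1, with 7 lower, 1 higher and a median change of −15.0. CDKN1A, an inhibitor of cyclin-dependent kinases, was the one with a raised background (1.88 and 2.16). Of 5 receptors and co-receptors for FGF19 and its relatives, 3 and 2 had a region, with 3 lower and a median of −9.11. KLB had no region of either mark, and FGFR4 had one of each mark in siCONT only. All 8 death receptor partners of FADD had a region in both siRNAs, with 7 lower, 1 higher and a median of −21.3. FAS (1.88 and 1.94) and RIPK1 (2.07 and 2.16) had a raised background. As in the neighbours, 1.88 in siCONT and 2.16 in siDLEU1 can rest on 1 control fragment, also at CDKN1A. Of 7 genes that work with cortactin in actin branching, 6 had a region in each siRNA, with 3 lower, 3 higher and a median of 0.478, and none had a raised background in both siRNAs. Ranked by fragments, the medians were 0.128 in the neighbours, −4.99 in the cyclin D1 list, −15.1 in the FGF19 list, −3.36 in the FADD list and −7.21 in the actin list, where all 6 were lower. By this ranking the FADD list stood above the median of all genes and the actin list below it, the reverse of their places by fold. In H3K4me3 the median change by fold was 0.183 over 15426 genes and 0.583 over the members. It was −2.16 in the neighbours, with 6 lower and 4 higher, and 0.145 in the cyclin D1 list. It was −0.622 in the FGF19 list, −0.0546 in the FADD list and 3.41 in the actin list. Ranked by fragments, the median was 0.226 over all genes and 0.0455 over the members. It was 2.49 in the neighbours, with 2 lower and 8 higher, and −0.411 in the cyclin D1 list, so both changed sign. It was −0.724 in the FGF19 list, −0.479 in the FADD list and 0.155 in the actin list. These changes are in rank within a list and carry no test.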

How the data were processed

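The data are 4 ChIP-seq libraries of HSC3 cells, for H3K27ac and H3K4me3 under each siRNA. Reads from an Ion Proton were aligned by the authors to hg19 (bowtie2), and the peaks that MACS2 called per library were deposited as 4 lists. The fold ratio in the deposited lists is the enrichment at the summit over the local background. MACS2 also gave the deposited −log10 p and −log10 q. A deposited score for display was left unused. The versions, settings and control library of peak calling are not given in the sources used here, and input libraries were not used here.

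Analysis was limited to chromosomes 1 to 22 and X, with 19705 and 17672 peaks for H3K27ac and 58582 and 56943 for H3K4me3 (siCONT and siDLEU1). Fragments at the summit, the scale to the control and the local background were solved from the fold ratio and p of each peak. A solution was found for 100% of peaks in each list. The solver was tested on simulated data, where it gave the exact fragment number for 100% of 2998 peaks with a shallow control and 99.3% of 2986 with a deeper one. Total reads rest on an assumed genome size of 2.7 Gb, and coverage multiples do not. Both lists of an siRNA gave the same control library. A siCONT region was paired with the overlapping (at least 1 bp) siDLEU1 region of highest fold ratio. Percentiles rank the strongest region of a gene within its list. Gene positions are from GENCODE on GRCh37, for genes with a curated RefSeq transcript (19141 protein-coding, 4994 lncRNA), of which the members are 7.

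No p-value was computed. Intervals are exact Poisson, Clopper-Pearson or conditional binomial at 95%. The members, gene lists and alternatives were chosen with earlier results of these data known. The genes named are the members, the 3 genes most like CCND1 and, from the lists, genes with a background over 1.5 times the median in both siRNAs. KLB, FGFR4, IGHMBP2, MRPL21, the marker DSG3 and the genes most like CCND1 by fragments fall outside this rule and were named after their values were seen. Alternatives were a minimum −log10 q of 10, stitching within 1 kb, 50% overlap, 10 kb upstream, 1 kb around TSSs, rank by −log10 p or fragments, other references for the background and, added later, pairing by the nearest summit. Python 3.11.15, numpy 2.4.6, pandas 2.3.3, scipy 1.17.1 and matplotlib 3.10.9 were used.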

Additional observations from a re-analysis of the deposited data

How the results depend on the processing

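Of 60 alternative values for the main comparisons, 36 stayed close to the value reported and 24 moved. Close means within 1.5 times for counts of regions and median percentile changes, within 10% for covered length and background, and within the counting interval of the reported value for overlaps and coverage ratios. That interval is wide for 11 H3K27ac regions, so an overlap of 85.7% with a minimum −log10 q of 10 counts as close to 63.6%. With a minimum −log10 q of 10, the siCONT H3K27ac regions of the members were 7, and the H3K4me3 regions were 20 in siCONT and 16 in siDLEU1, with 85% of the siCONT regions overlapped. With regions within 1 kb stitched, there were 5 H3K27ac regions in siDLEU1, and 23 and 18 H3K4me3 regions in siCONT and siDLEU1. Within 1 kb of a TSS there were 15 and 11 H3K4me3 regions. With an overlap of 50% of both regions, 38.5% of siCONT H3K4me3 regions were overlapped. Scaled by the median ratio of all pairs, the summed coverage ratio was 1.03 for H3K27ac and 1.22 for H3K4me3. The H3K4me3 ratio was 1.34 over the strongest pair of each gene, and 1.31 with summits within 500 bp, which was added after the data were seen. The local background of the members over the median of all regions, 2.67 in siCONT and 2.26 in siDLEU1, was 3.31 and 2.81 over the genome-wide mean, 3.57 in the siCONT H3K27ac list alone, 2.84 in siDLEU1 away from TSSs and 2.56 in the siDLEU1 H3K4me3 list alone. The median percentile change of the members, −8.94 for H3K27ac and 0.583 for H3K4me3, was −3.50 by −log10 p for H3K27ac, −0.0902 and 0.0455 by fragments, and −0.746 and 1.40 with a minimum −log10 q of 10. Of 51 alternative percentile changes at single genes, 32 stayed within 10 points, 14 moved and 5 changed sign. Ranked by fragments, the change was −0.0867 for H3K27ac at PPFIA1, and for H3K4me3 0.0289 at CCND1, −1.53 at PPFIA1 and 0.822 at CTTN. Ranked by −log10 p, H3K4me3 at CTTN changed by 0.550. Apart from the stated change of reference or of regions counted, the cause was not tested. No paired analysis was possible because each siRNA and mark has 1 library. With 1 library each, no leave-one-out value could be had.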
